A study of Homo sapiens with 3 samples.

Results

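The 10 gene loci described here belong to the NF-kB pathway and its cytokine outputs: NFKBIA and TNFAIP3, which encode inhibitors of the pathway; NFKB1, NFKB2 and RELB, which encode subunits of the transcription factor; and TNF, IL1B, IL10, CXCL8 and CCL2, which encode cytokines and chemokines. A locus was the stretch of 100 kb to each side of the gene start on hg19, and its members were all peaks of the vitamin D receptor (VDR) that reached into it. The loci held 3 of 1169 peaks from unstimulated cells and 8 of 1820 peaks from cells given calcitriol, the hormonal form of vitamin D. After merging overlapping peaks of both lists these were 9 of 2121 regions. Start positions were known to the nearest 1 kb, and the symbols and chromosomes of all 10 genes matched a RefSeq gene table.

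The study mapped VDR by ChIP-seq in THP-1, a human monocytic leukaemia line. One library came from cells left without ligand and one from cells that received calcitriol at 10 nM during 40 min, in both cases after a night in phenol red-free medium with charcoal-stripped serum. Each library pooled 5 immunoprecipitations, so there was 1 library per condition and no replicate, and no difference between the conditions could be tested. The third of the 3 samples, an IgG control from pooled material, was not analysed here. The lists give positions with no read count or height, so the depth behind them is unknown, and a missing peak shows only that none was listed.

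NF-kB is a family of dimeric transcription factors that inhibitor proteins hold in the cytoplasm of resting cells. Inflammatory signals trigger destruction of the inhibitor, the dimers enter the nucleus, and they switch on cytokine and chemokine genes together with the genes of their own inhibitors, which closes a negative feedback loop. VDR, a ligand-activated receptor of the nuclear receptor family, usually binds DNA beside a retinoid X receptor, and vitamin D signalling is known in monocytes for its links to inflammatory responses.

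VDR peaks were listed near 5 of the 10 genes and none near the other 5. NFKBIA and CXCL8 had peaks in the calcitriol list alone. RELB, TNF and IL10 had peaks in both lists. NFKB1, NFKB2, TNFAIP3, IL1B and CCL2 had none in either list. By list, 3 of 10 genes had a peak in unstimulated cells and 5 of 10 after calcitriol. For background, the chromosomes were stepped through at every 1 kb. A peak of the unstimulated list lay within 100 kb of 4.66% of these positions, a peak of the calcitriol list of 7.91%, and a peak of either list of 9.14%. The shares among the 10 genes were above these genome values in both lists. Steps through the whole genome include gene-poor sequence, and a background of gene starts on hg19 was not calculated here. On the genes' own chromosomes the share for either list ran from 5.79% on chromosome 4 (NFKB1, CXCL8) to 31.0% on chromosome 19 (RELB). Summed over the 10 genes, these own-chromosome shares came to 0.618 genes for the unstimulated list and 0.971 for the calcitriol list, beside the 3 and 5 found. The genes were chosen with earlier results of these data known, so these numbers describe them and enrichment was not tested.

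**Figure D1:**
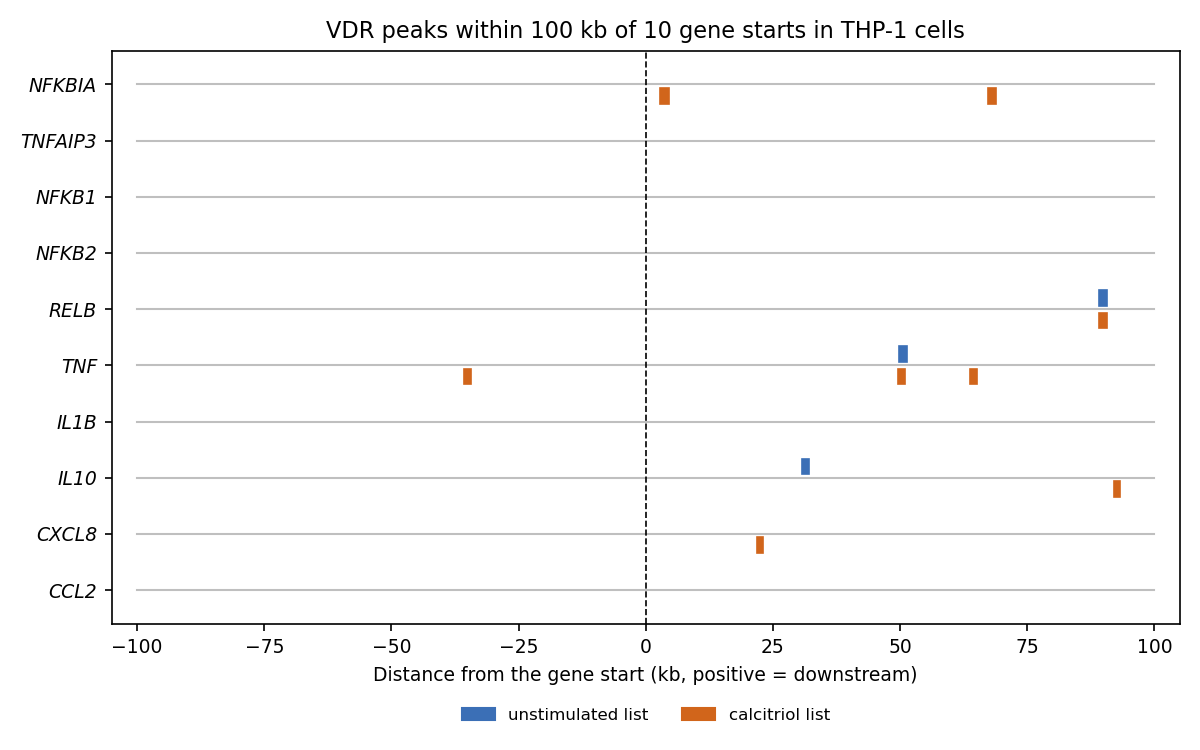
Position of each VDR peak, drawn to scale, relative to the start of 10 genes (x axis, kb, positive in the direction of transcription), with unstimulated peaks in blue above each line and calcitriol peaks in orange below it. The loci of NFKBIA, RELB, TNF, IL10 and CXCL8 hold peaks, the other 5 hold none, and no peak covers a gene start.

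The merged regions of the loci were mostly of the calcitriol-only class. Of the 9 regions, 6 were found in the calcitriol list alone (52.0% of all regions of the series), 2 were shared by both lists through at least 1 bp of overlap (27.4% of all regions) and 1 was found in the unstimulated list alone (20.6% of all regions). With 9 regions this division was not far from that of the whole series. The calcitriol-only regions lay at NFKBIA (2), TNF (2), CXCL8 (1) and IL10 (1). The shared regions lay at RELB and TNF, and the unstimulated-only region at IL10. None of the 11 peaks was part of a string of neighbours 10 bp apart. None came from the 170 out-of-order rows of the unstimulated list. These are all rows of a chromosome from the first break in its position order onward.

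Among the inhibitors, NFKBIA stood closest to a VDR peak. It encodes the inhibitor that masks NF-kB dimers in the cytoplasm. In the calcitriol list a peak at chr14:35869411-35871191 (1780 bp wide) lay 2.8 kb downstream of the start at 35.874 Mb. This was the only peak within 20 kb of any of the 10 starts, and 0.272% of positions on chromosome 14 lay as near to a calcitriol peak. A second calcitriol peak at chr14:35805171-35806671 (1500 bp) lay 67.3 kb downstream. In gene order the protein-coding neighbours on that side are PSMA6, a proteasome subunit gene, and PRORP. The unstimulated list had neither peak. Its nearest peak, at chr14:35343891-35344880, was 529.1 kb downstream, a distance that 20.1% of positions on the chromosome did not exceed. Whether the near peak lies over an exon or past the gene's end was not determined, because no annotation of hg19 was used.

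TNFAIP3, which encodes a ubiquitin-editing enzyme that dampens NF-kB signalling, had no peak within 1000 kb in either list. The nearest unstimulated peak (chr6:137112901-137115200) lay 1072.8 kb upstream of its start at 138.188 Mb. The nearest calcitriol peak (chr6:139690721-139691841) lay 1502.7 kb downstream. On chromosome 6, 31.0% of positions lay as near to an unstimulated peak and 56.3% as near to a calcitriol peak. The 2 inhibitor genes therefore differed in the calcitriol list, with 2 peaks in the locus of NFKBIA and 0 in that of TNFAIP3.

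Of the subunit genes, RELB alone had a peak in its locus. RelB is the subunit that typically pairs with the NFKB2 product in the non-canonical pathway. Its start lies at 45.505 Mb on chromosome 19. The unstimulated peak at chr19:45594211-45595710 (1499 bp) lay 89.2 kb downstream, and the calcitriol peak at chr19:45594051-45595651 (1600 bp) lay 89.1 kb downstream. They overlapped by 1440 bp, which is 96.1% of the unstimulated and 90.0% of the calcitriol peak, and their centres were 109.5 bp apart. The same stretch was thus listed in both states. Chromosome 19 is dense in peaks, and 23.3% of its positions lay as near to a calcitriol peak and 20.8% as near to an unstimulated peak. A distance like that at RELB was thus common on its chromosome. The neighbours on that side in gene order are CLASRP, ZNF296, GEMIN7 and PPP1R37.

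NFKB1 and NFKB2 encode precursor proteins that are processed into DNA-binding subunits. NFKB1, with its start at 103.422 Mb on chromosome 4, had no peak within 1000 kb in either list. The nearest lay 2553.2 kb upstream in unstimulated cells (chr4:100867151-100868761) and 1153.3 kb upstream after calcitriol (chr4:102267351-102268670). On chromosome 4, 37.8% of positions lay as near to an unstimulated peak and 40.1% as near to a calcitriol peak. NFKB2, with its start at 104.154 Mb on chromosome 10, was nearer to an unstimulated peak, 245.4 kb upstream at chr10:103906411-103908631, than to a calcitriol peak, 1364.7 kb upstream at chr10:102787981-102789341. That unstimulated peak is one of the out-of-order rows. With those rows left out, the nearest unstimulated peak was 1364.0 kb away, level with the calcitriol list. With all rows kept, 6.32% of positions on chromosome 10 lay as near to an unstimulated peak and 54.0% as near to a calcitriol peak.

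The sequences just before the gene starts are shown for the genes in which the classical NF-kB consensus was found, because these genes fall on both sides of the comparison: NFKBIA had calcitriol peaks in its locus, and NFKB1 and TNFAIP3 had no peak of either list there. Each line gives the 250 bases before the start from RefSeq, on GRCh38.p14, 5′ to 3′ in the direction of the gene. Capitals mark matches to the consensus on either strand. These positions are on another build and cannot be set beside those of the peaks.
NFKBIA (chr14:35404750-35404999, minus strand): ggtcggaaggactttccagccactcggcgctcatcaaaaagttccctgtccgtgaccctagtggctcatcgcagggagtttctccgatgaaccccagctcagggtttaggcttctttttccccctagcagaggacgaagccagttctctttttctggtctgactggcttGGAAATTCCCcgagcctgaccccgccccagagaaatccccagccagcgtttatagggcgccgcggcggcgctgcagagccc
TNFAIP3 (chr6:137867009-137867258, plus strand): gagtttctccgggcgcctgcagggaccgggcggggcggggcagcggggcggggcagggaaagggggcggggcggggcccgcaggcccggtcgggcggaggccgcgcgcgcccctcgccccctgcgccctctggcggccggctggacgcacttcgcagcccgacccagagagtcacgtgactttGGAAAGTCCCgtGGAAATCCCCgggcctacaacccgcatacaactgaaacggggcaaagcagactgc
NFKB1 (chr4:102501109-102501358, plus strand): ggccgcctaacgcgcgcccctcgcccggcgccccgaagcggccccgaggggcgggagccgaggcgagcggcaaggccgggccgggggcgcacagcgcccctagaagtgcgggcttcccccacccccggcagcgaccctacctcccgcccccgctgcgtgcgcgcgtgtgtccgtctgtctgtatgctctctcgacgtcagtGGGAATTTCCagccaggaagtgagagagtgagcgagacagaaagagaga

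NFKBIA held 1 match, GGAAATTCCC, beginning 81 bases before the start. NFKB1 held 1, GGGAATTTCC, beginning 49 bases before. TNFAIP3 held 2, GGAAAGTCCC and GGAAATCCCC, beginning 67 and 55 bases before. Sequences of 8 of the 10 genes were matched by symbol (not RELB and CCL2), and 3 of these 8 held the consensus, against 5.21% of 35116 RefSeq promoters of the same length. The genes were picked as members of this pathway, so this count only describes them. Only exact matches to GGGRNWYYCC were counted (R is A or G, W is A or T, Y is C or T, N is any base). CXCL8 held TGGAATTTCC, which departs from this pattern at its first base, so a gene without a match can still hold a related site. For VDR the hexamers AGGTCA, or AGTTCA, or GGTTCA, or GGGTCA, were searched on both strands. At least 1 was present in NFKBIA, IL1B and IL10, which is 3 of 8 against 33.8% of all promoters. The direct repeat of 2 such hexamers spaced by 3 bases, the arrangement VDR is best known to bind, was found in 0 of 8 and in 0.0655% of all promoters. No peak of either list covered any of the 10 starts, so these windows describe the genes and not the bound sites. The sequences under the peaks were not read, since no hg19 genome was used.

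TNF had the most peaks. It encodes a principal inflammatory cytokine of monocytes and macrophages and lies in the major histocompatibility complex, with its start at 31.543 Mb on chromosome 6. The unstimulated list had 1 peak in its locus, at chr6:31592701-31594340 (1639 bp), 49.7 kb downstream. The calcitriol list had 3. The first, at chr6:31507301-31508691 (1390 bp), lay 34.3 kb upstream and was calcitriol-only. It was the only 1 of the 11 peaks at the 10 loci on the upstream side of a gene start. These 11 count each shared site once per list, and the sides of peaks at other gene starts were not determined. The second, at chr6:31592511-31594061 (1550 bp), lay 49.5 kb downstream and overlapped the unstimulated peak by 1360 bp, or 83.0% of the unstimulated and 87.7% of the calcitriol peak. The centres of this pair were 234.5 bp apart. The third, at chr6:31606761-31608171 (1410 bp), lay 63.8 kb downstream, 12.7 kb beyond the second, and was calcitriol-only. On chromosome 6, 2.62% of positions lay as near to an unstimulated peak as TNF did, and 3.39% as near to a calcitriol peak.

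The calcitriol list thus held the 1 site that the unstimulated list had at TNF and 2 further sites, 1 on each side of the gene start. The wider neighbourhood also held peaks in both states, with 5 unstimulated and 6 calcitriol peaks within 500 kb of the start and 6 and 8 within 1000 kb. The share of positions with as many peaks was not calculated. The genes next to TNF are LTA and NFKBIL1 upstream and LTB and LST1 downstream. LTA and LTB encode the lymphotoxins, relatives of TNF, and a peak in this crowded stretch belongs to no single gene by position alone.

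At IL10 the lists named different sites. IL10 encodes an anti-inflammatory cytokine, and its start lies at 206.946 Mb on chromosome 1. The unstimulated list had a peak at chr1:206913861-206915371 (1510 bp), 30.6 kb downstream, with no calcitriol peak over it. The calcitriol list had a peak at chr1:206852761-206853841 (1080 bp), 92.2 kb downstream, with no unstimulated peak over it. On chromosome 1, 2.58% of positions lay as near to an unstimulated peak and 10.1% as near to a calcitriol peak. Of the 3 genes with peaks of both lists, IL10 was the only one without a shared region. It was also the only gene of the 10 with an unstimulated-only region. Of all regions of the series 27.4% were shared, so sites found in 1 list alone were common. Both peaks at IL10 lie on the side of MAPKAPK2, the kinase gene next in order, and away from IL19 and IL20, cytokine genes of the IL10 family.

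IL1B, which encodes an inflammatory cytokine that is cleaved to its active form, had no peak in its locus. Its nearest calcitriol peak, at chr2:113402841-113403841, lay 190.2 kb downstream of the start at 113.594 Mb. The neighbours on that side in gene order are IL1A, CKAP2L, NT5DC4 and SLC20A1. The unstimulated peak nearest to IL1B, at chr2:111879591-111880441, lay 1713.6 kb downstream and is an out-of-order row. With such rows left out the distance was 8862.8 kb. Of all genes without a peak in the locus, IL1B came closest to the limit of 100 kb, followed by NFKB2 with 245.4 kb. On the inner side of the limit, RELB came closest to it, at 89.1 kb. By the calcitriol list alone IL10 lay at 92.2 kb, but its unstimulated peak was nearer, at 30.6 kb.

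The chemokine genes differed from each other. CXCL8, which encodes a chemoattractant of neutrophils, had a calcitriol peak at chr4:74627961-74628991 (1030 bp), 22.0 kb downstream of the start at 74.606 Mb. On chromosome 4, 1.25% of positions lay as near to a calcitriol peak, and the next calcitriol peak was 3742.4 kb away. This gap was not compared with the gaps between other peaks of the list. The nearest unstimulated peak was 4308.9 kb upstream and is an out-of-order row, and with those rows left out the distance was 9206.3 kb. In gene order CXCL6, PF4V1 and CXCL1, other chemokine genes, follow CXCL8 on the side of the calcitriol peak. CCL2, which encodes a chemoattractant of monocytes, had its start at 32.582 Mb on chromosome 17 and no peak within 1000 kb in either list. Its nearest peaks were 5303.9 kb upstream in the unstimulated list (chr17:27276291-27278070) and 1511.5 kb upstream in the calcitriol list (chr17:31069291-31070511). On this chromosome 91.5% of positions lay as near to an unstimulated peak and 71.2% as near to a calcitriol peak, so CCL2 lay in a stretch with few peaks for its chromosome.

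**Figure D2:**
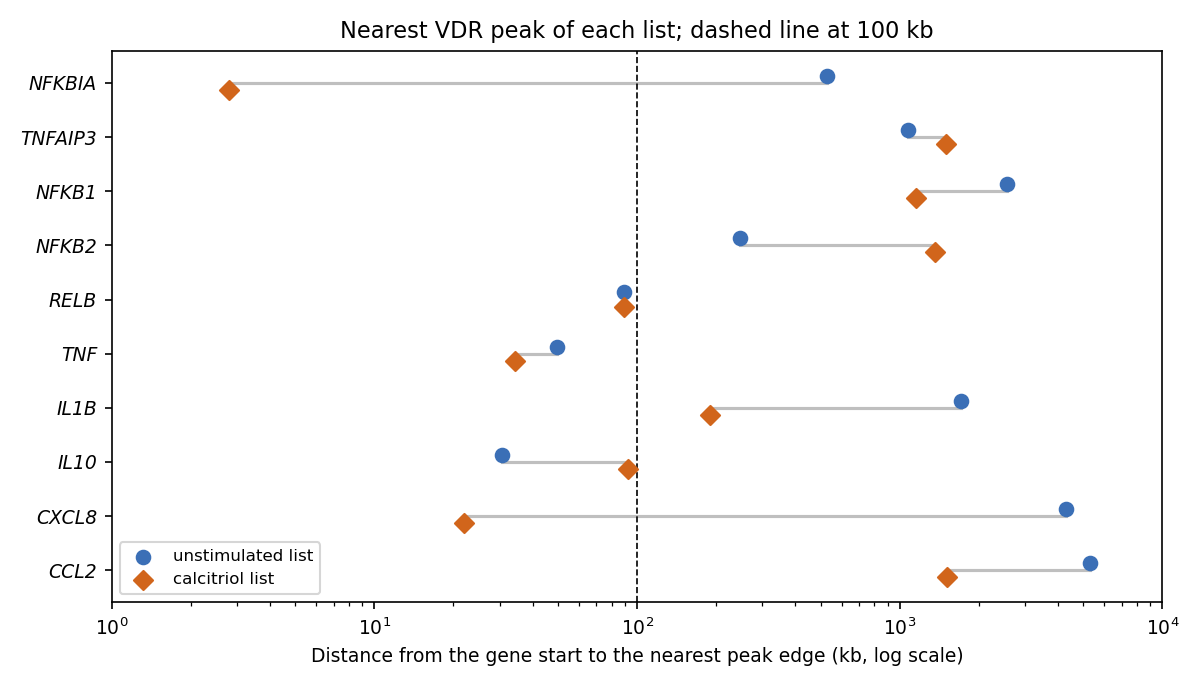
Distance from each gene start to the nearest edge of a VDR peak (x axis, kb, log scale), with circles for the unstimulated and diamonds for the calcitriol list and a dashed line at 100 kb. The points of NFKBIA lie at 529.1 and 2.8 kb and those of CXCL8 at 4308.9 and 22.0 kb, while those of RELB coincide near 89 kb.

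Over the 10 genes the distance to the nearest unstimulated peak ran from 30.6 kb (IL10) to 5303.9 kb (CCL2), with a median of 801.0 kb. With the out-of-order rows left out, this median was 1218.4 kb and CXCL8 was the farthest, at 9206.3 kb. The distance to the nearest calcitriol peak ran from 2.8 kb (NFKBIA) to 1511.5 kb (CCL2), with a median of 141.2 kb. Over all 1 kb positions of the genome the medians were 2602 kb for the unstimulated list (2960 kb with those rows left out) and 1257 kb for the calcitriol list. The calcitriol peak was the nearer one at 7 of 10 genes (NFKBIA, NFKB1, RELB, CXCL8, IL1B, TNF and CCL2) and the unstimulated peak at 3 (NFKB2, TNFAIP3 and IL10). The calcitriol list is the longer one, and its peak was the nearer one at 78.3% of all positions, so 7 of 10 was not above the background. At RELB the distances differed by less than the precision of the start.

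The count of genes depended on the distance allowed. Within 20 kb, NFKBIA alone had a peak, in the calcitriol list, against 1.91% of all positions. The unstimulated list reached 0 genes, against 1.13%. Within 50 kb the calcitriol list reached NFKBIA, CXCL8 and TNF (3 genes, against 4.32% of all positions), and the unstimulated list TNF and IL10 (2 genes, against 2.54%). Within 500 kb the counts were 6 and 4 genes, against 27.9% and 16.8% of positions. The fourth unstimulated gene, NFKB2, rests on an out-of-order row, and with those rows left out the count was 3 of 10, against 15.0% of positions. The calcitriol count did not grow further at 1000 kb, where it stayed at 6 of 10 genes while the background reached 43.7%. NFKB1, TNFAIP3 and CCL2 were the 3 genes with no peak of either list at that distance, and NFKB2 joined them with those rows left out. A peak of either list lay within 1000 kb of 46.4% of all positions, so having none was common across the genome.

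**Figure D3:**
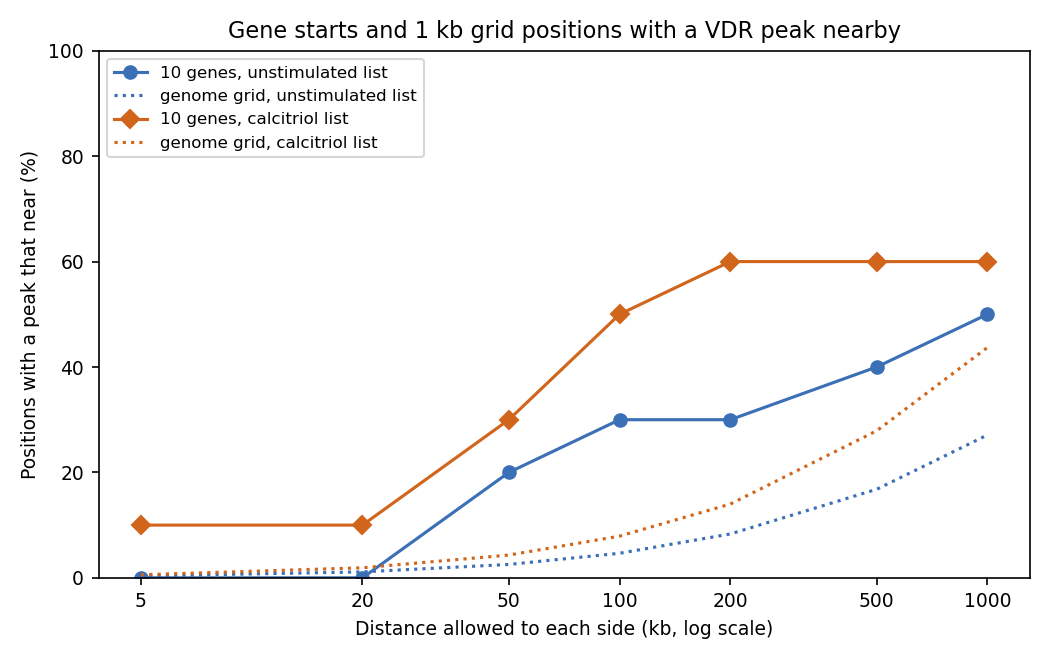
Percentage of the 10 gene starts (solid lines with markers) and of all 1 kb positions of the genome (dotted lines) with a VDR peak within the distance on the x axis (kb, log scale). Between 50 and 1000 kb the gene lines lie above the dotted line of the same list. For the calcitriol list the gap narrows at 1000 kb, with 6 of 10 genes against 43.7%.

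Peak width is the measure left in lists without scores. The 3 unstimulated peaks of the loci were 1499 bp (RELB), 1510 bp (IL10) and 1639 bp (TNF) wide, all above the median of their list of 1340 bp and below its upper quartile of 1710 bp. The 8 calcitriol peaks ran from 1030 bp (CXCL8) to 1780 bp (NFKBIA, the peak near the start), with a median of 1455 bp beside 1430 bp for the list, and 4 of 8 were above the list's median. The peaks at CXCL8 (1030 bp) and IL10 (1080 bp) were below the lower quartile of 1090 bp, and the near peak of NFKBIA equalled the upper quartile of 1780 bp. At the shared sites the calcitriol peak was wider by 101 bp at RELB, and the unstimulated peak was the wider one at TNF, with 1639 against 1550 bp. The widths at these loci thus lay within the ordinary range of the lists.

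**Figure D4:**
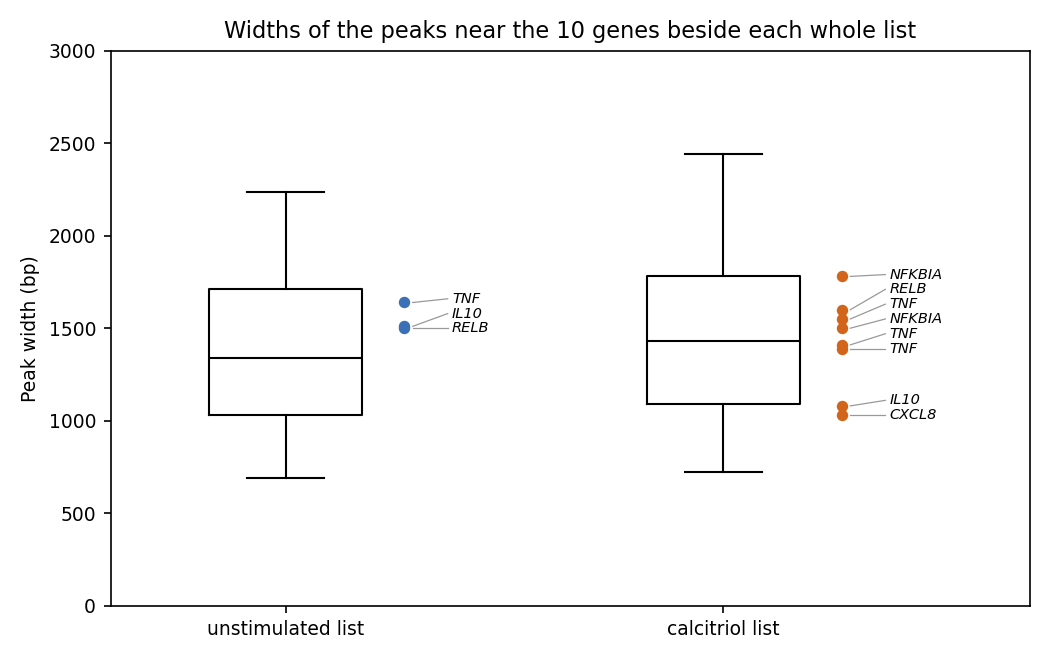
Width in bp (y axis) of the 3 unstimulated and 8 calcitriol peaks within 100 kb of the gene starts (points with gene names), beside box plots of all 1169 and 1820 peaks (line at the median, box over the quartiles, whiskers from the 5th to the 95th percentile). The points lie between 1030 and 1780 bp, with CXCL8 and IL10 lowest and NFKBIA highest in the calcitriol list.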

How the data were processed

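VDR ChIP-seq libraries of unstimulated and calcitriol-treated THP-1 cells were analysed, 1 per condition. Per the submitters' processing notes, Bowtie and the hg19 build were used for the reads. For the peak caller, its threshold and the role of the IgG control: not given in the sources used here. The authors deposited chromosome, start and end of each peak, with no score or depth, and positions are printed as deposited. Peaks whose nearest edge lay within 100 kb of a start were assigned to that gene. Peaks of the lists sharing at least 1 bp were merged. Background shares used 3013237 positions spaced by 1 kb, up to the last peak of each chromosome, gaps included. Upstream and downstream follow the known strand of each gene. Neighbours are in the protein-coding gene order of RefSeq on GRCh38.p14. The promoter search was planned for starts under a peak and, since there were none, was run, after the data were seen, on the 8 genes with a RefSeq promoter sequence. The wider list of pathway genes was not placed, for lack of hg19 positions. The members and lists were chosen with earlier results of these data known, and all 10 genes and every peak in their loci are named. Functions were tested on simulated peaks. Python 3.11.15, numpy 2.4.6 and matplotlib 3.10.9 were used.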

Additional observations from a re-analysis of the deposited data

How the results depend on the processing

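No paired analysis was possible because there were no replicates, and for the same reason none could be left out. Of 121 alternative values, 106 stayed within 1.5 times of the reported value and 15 did not. With 20 kb to each side, 0 genes had an unstimulated peak, 1 a calcitriol peak and 1 a peak of either list. The shares of all positions were 1.13%, 1.91% and 2.29%. With 50 kb, 3 genes had a calcitriol peak (against 4.32% of positions), and 1 shared and 3 calcitriol-only regions were left. With 200 kb, there were 4 shared and 2 unstimulated-only regions. In the wider 50% of each list, 3 genes had a calcitriol peak, and no share of positions was calculated for these wider peaks. When sharing required centres within 100 bp, 0 regions were shared and 3 were unstimulated-only, because the centres at RELB and TNF are farther apart. The shares of all regions under that rule were not calculated. With out-of-order rows left out, the median unstimulated distance was 1218.4 kb, an alternative chosen after seeing the data, as was leaving them out at 500 and 1000 kb. The remaining 3 values are the distances at NFKB2, CXCL8 and IL1B without out-of-order rows, given above. Reciprocal overlap of 50%, a tolerance of 1 kb, joined peaks, peak centres and starts moved by 500 bp moved no value by more than 1.5 times. Depth is unknown, so genes without a peak cannot be told apart from genes with a weaker signal below the threshold.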
